A study of Mus musculus with 9 samples.

Results

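Gene expression in the mouse trigeminal ganglion (TG) was compared between day 6 and day 3 after complete Freund's adjuvant (CFA) was injected into the temporomandibular joint (TMJ). The comparison uses 6 of the 9 libraries of the study, chosen by their labelled day, with 3 from day 3 (CFA3D replicates 1, 2 and 3) and 3 from day 6 (CFA6D replicates 4, 5 and 6). All donors were wild-type male C57BL/6 mice of 8 weeks that had received 10 µl of CFA at 5 mg/ml, and the labels separate the groups by day alone. Every library was pooled from ganglion tissue of 3 mice, and n = 3 pools per day throughout. The p-values measure the spread between these pools. The hour at which tissue was taken is not given in the sources used here. Saline libraries (n = 3) entered none of the main tests, only the alternative fit with all 9 libraries. Their values are otherwise quoted as a reference level. They are labelled day 3, so no saline library stands for day 6.

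The TG holds the cell bodies of the sensory neurons of the face and jaw, each wrapped by satellite glia, together with Schwann cells, resident macrophages, fibroblasts and vessels. CFA, an oil emulsion of killed mycobacteria, causes a lasting inflammation of the joint that these neurons innervate. Glucocorticoid hormones act through a nuclear receptor that raises transcription of a shared group of genes in many tissues, and immediate early genes are transcription factors and regulators that are switched on within minutes by stimulation of a cell.

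FPKM counts fragments relative to transcript length and to library size, and the values of all transcripts of a gene were added up (gene sum). Between 36.0 and 42.2 M read pairs stood behind each CFA library, as read from the step at which low values pile up. Neuronal markers were high in all 6 libraries, with Tubb3 at 574 to 711 FPKM, Scn10a at 72.9 to 95.1 FPKM and Avil at 114 to 161 FPKM, and so were Mbp of Schwann cell myelin at 403 to 663 FPKM and Fabp7 of satellite glia at 49.98 to 85.9 FPKM. Markers of neighbouring tissues differed between libraries. The 10 genes of a pituitary list summed to 46.8, 38.9 and 42.4 FPKM on CFA3D and to 1151, 438 and 68.9 FPKM on CFA6D. The 15 genes of a neutrophil and marrow list summed to 48.3, 95.8 and 33.3 FPKM on CFA3D and to 162, 155 and 3082 FPKM on CFA6D. In a principal component analysis of the 6 libraries, the component that held 45.9% of the variance placed CFA6D replicate 6 at 64.8 and the other 5 between -24.4 and 1.2. The next component held 21.1% and placed CFA6D replicate 4 at 35.9, CFA3D replicate 2 at -31.9 and the rest between -11.9 and 8.6. Most lists below are therefore given also without CFA6D replicate 6, and many without other libraries that moved their counts.

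A gene is said to have risen or fallen where the limma test of log2(FPKM + 0.1) gave an unadjusted p under 0.05 (p-values printed from here on are the adjusted ones), and it is called where the log2 fold change also reached 1 in size. Fold changes are CFA6D minus CFA3D on that log2 scale, with the standard error (SE), and the scale understates changes of low genes. Of 16092 gene sums of the mRNA table, 584 rose (3.63%) and 840 fell (5.22%), and the median over all was -0.02. Of these, 97 were called higher (0.603%) and 24 called lower (0.149%). The shares that rose and fell, 3.63% and 5.22%, are the reference for every list count below. After Benjamini-Hochberg adjustment in limma 0 of the 1424 that moved stayed under 0.05, and the smallest adjusted p was 0.103. The values of the days did not overlap in 16.6% of all gene sums. With each library left out in turn, 46 of the 97 and 15 of the 24 still had a p under 0.05 in the same direction in all 6 fits. CFA6D replicate 6 was the highest library in 53 of the 97 genes called higher, and 13 of the 97 belong to the lists for pituitary, marrow, blood, muscle, fat, bone, histones and cell cycle.

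Many genes that respond to glucocorticoids rose between CFA3D and CFA6D. Of 28 listed genes, 13 rose and 0 fell, where 3.63% of all gene sums rose, and the median log2 fold change was 0.61. Without CFA6D replicate 6 the list had 12 that rose and a median of 0.62. The group was assembled with earlier results of these data known, so its direction is a description. Of the 13 genes that rose, 9 had a p under 0.05 in all 6 fits with a library left out. CFA3D replicate 3 was the lowest CFA library in 12 of the 13, and without it 10 rose and the median was 0.33. Between 9 and 15 rose over these fits, with the fewest without CFA6D replicate 5.

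Arid5b, which encodes a DNA-binding cofactor of chromatin, had the smallest p of all gene sums. Its values were 7.71, 7.22 and 8.896 FPKM on CFA3D and 20.04, 18.6 and 17.7 FPKM on CFA6D, so the lowest CFA6D library lay well above the highest CFA3D library. The log2 fold change was 1.24 ± 0.10 (SE, adjusted p = 0.103 in limma), and the saline libraries had 7.299 to 10.6 FPKM. Ddit4, whose product REDD1 restrains the growth kinase mTORC1, had 26.4, 27.2 and 16.4 FPKM on CFA3D and 69.4, 79.1 and 62.97 FPKM on CFA6D. It rose by 1.62 ± 0.20 (SE, adjusted p = 0.397 in limma). Its saline libraries lay at 16.9 to 26.3 FPKM, close to CFA3D, whose day they share.

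Nfkbia encodes IκBα, which holds NF-κB in the cytoplasm. It was measured at 16.1, 18.3 and 10.1 FPKM on CFA3D and 27.7, 34.5 and 32.2 FPKM on CFA6D, without overlap, and rose by 1.12 ± 0.22 (SE, adjusted p = 0.487 in limma). Sgk1, the serum- and glucocorticoid-regulated kinase, had 34.4, 25.8 and 17.4 FPKM on CFA3D and 49.6, 67.2 and 58.9 FPKM on CFA6D and rose by 1.22 ± 0.24 (SE). Pdk4, which slows the entry of pyruvate into mitochondrial oxidation, had 4.29, 3.88 and 2.62 FPKM on CFA3D and 8.06, 10.4 and 6.56 FPKM on CFA6D and rose by 1.19 ± 0.23 (SE). In these 3 genes every CFA6D library exceeded every CFA3D library. Sik1, a kinase that restrains CREB coactivators, rose by 1.06, and Arrdc2, of the arrestin-domain family, by 1.28. Hif3a, a member of the hypoxia-inducible factor family, rose by 1.62 from 3.22, 2.28 and 1.16 FPKM on CFA3D to 6.34, 8.11 and 5.38 FPKM on CFA6D.

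**Figure D1:**
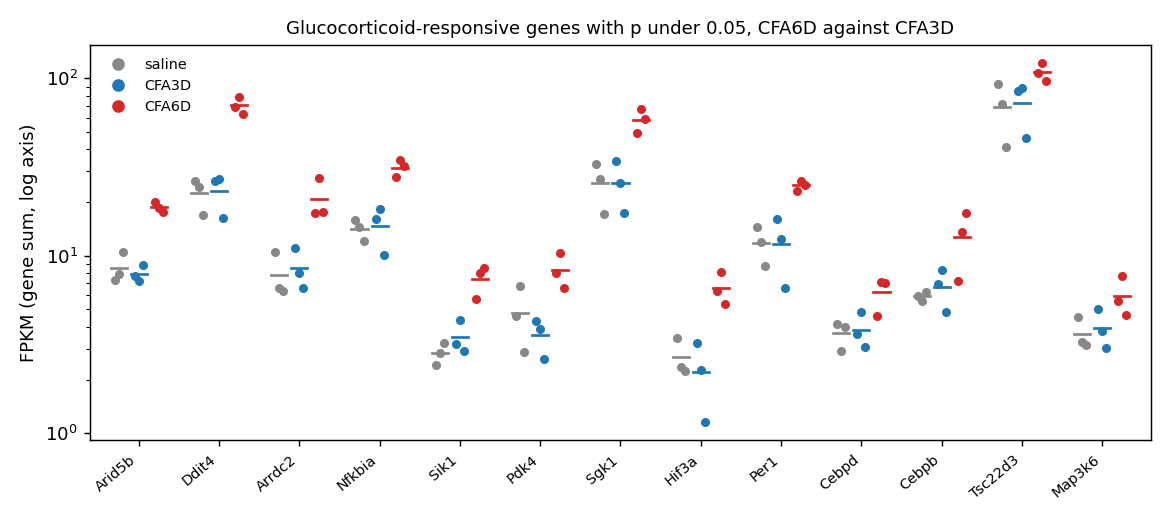
FPKM of the 13 glucocorticoid-responsive genes with a p under 0.05 (vertical log axis, gene sums) in the saline, CFA3D and CFA6D libraries, where points are libraries and bars are means of 3. In Arid5b the CFA6D points lie between 17.7 and 20.0 FPKM and the CFA3D points between 7.22 and 8.90 FPKM, and in Map3k6, Cebpb and Cebpd the days overlap.

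Members of the list that are classical targets of the hormone did not all pass the test. Tsc22d3, which encodes the anti-inflammatory protein GILZ, rose by 0.62 from 84.8, 88.6 and 45.9 FPKM to 107, 123 and 96.1 FPKM (adjusted p = 0.561 in limma), and the p was over 0.05 without CFA6D replicate 4 (0.63) or CFA6D replicate 5 (0.53). Fkbp5, a co-chaperone of the glucocorticoid receptor, had 28.8, 32.02 and 13.9 FPKM on CFA3D and 28.2, 46.3 and 36.8 FPKM on CFA6D, with overlap between the days and an adjusted p of 0.615 in limma. The metallothioneins Mt1 and Mt2 had log2 fold changes of -0.13 and -0.06 (adjusted p = 0.872 and 0.957 in limma). Zbtb16 was measured at 29.8, 25.6 and 8.43 FPKM on CFA3D and 23.02, 35.6 and 27.96 FPKM on CFA6D, a spread within each day that exceeded the difference between them.

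Immediate early genes rose in part. Of 27 tested, 10 rose and 0 fell against 3.63% and 5.22% of all gene sums, with a median of 0.47 (9 rose and the median was 0.48 without CFA6D replicate 6). With each library left out in turn between 7 and 13 rose, at medians of 0.33 to 0.67. Nr4a1, an orphan nuclear receptor, had 11.3, 13.4 and 8.57 FPKM on CFA3D and 19.4, 22.3 and 17.5 FPKM on CFA6D and rose by 0.84 ± 0.17 (SE, adjusted p = 0.487 in limma). Egr3, a zinc finger factor, rose by 1.06 from 1.13, 1.68 and 0.902 FPKM to 2.29, 2.64 and 2.94 FPKM. Both genes separated the days without overlap. Zfp36, whose product tristetraprolin speeds the decay of cytokine mRNAs, rose by 0.85 and the AP-1 subunit Fosl2 by 0.96. Npas4, an activity-driven factor of neurons, was low and rose from 0.0572, 0.0647 and 0.1102 FPKM to 0.211, 0.259 and 0.371 FPKM. Egr2, the regulator of Schwann cell myelination, varied widely on CFA3D, at 9.68, 2.75 and 1.93 FPKM, and lay at 13.03, 14.7 and 11.8 FPKM on CFA6D (log2 fold change 1.78 ± 0.54, SE). These 6 genes kept a p under 0.05 in all fits with a library left out. Klf2 rose by 1.30, with a p over 0.05 without CFA6D replicate 5 (1.19). Btg2, Nr4a3 and Egr1 rose by 0.74, 0.73 and 0.50, with a p over 0.05 for Btg2 without CFA3D replicate 1 (0.71), CFA3D replicate 3 (0.57), CFA6D replicate 5 (0.68) or CFA6D replicate 6 (0.63), for Nr4a3 without CFA3D replicate 1 (0.80), CFA3D replicate 3 (0.53) or CFA6D replicate 5 (0.52), and for Egr1 without CFA3D replicate 1 (0.38), CFA3D replicate 3 (0.46), CFA6D replicate 5 (0.56) or CFA6D replicate 6 (0.37). Egr2 also stands in the list of myelin genes.

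The circadian clock, a feedback loop of transcription factors that runs in most cells, was tested as a list of its own. Of 20 clock genes, 2 rose (10%) and 1 fell (5%), beside 3.63% and 5.22% of all gene sums. The median was -0.02 (-0.01 without CFA6D replicate 6). Per1, a repressor of the loop that is also a glucocorticoid target, rose by 1.18 ± 0.30 (SE), with 16.1, 12.5 and 6.57 FPKM on CFA3D and 23.2, 26.5 and 25.2 FPKM on CFA6D. Clock, an activator of the loop, fell by 0.42 ± 0.09 (SE) from 10.5, 10.9 and 8.99 FPKM to 7.599, 7.303 and 7.63 FPKM. Cry2 rose by 0.23, with a p over 0.05 without CFA3D replicate 3 (0.19), CFA6D replicate 4 (0.19) or CFA6D replicate 5 (0.22). Without CFA3D replicate 3, 1 rose and 5 fell, and the median lay between -0.07 and 0.06 over the fits with a library left out. Of the genes that did not pass, the repressor Nr1d1 had 16.6, 19.05 and 12.1 FPKM on CFA3D and 15.9, 14.8 and 13.8 FPKM on CFA6D (adjusted p = 0.8896 in limma). Dbp had 19.9, 23.9 and 12.2 FPKM on CFA3D and 13.00, 15.01 and 17.3 FPKM on CFA6D (adjusted p = 0.755 in limma).

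Promoter sequence is shown for the called glucocorticoid-responsive genes whose highest transcript starts within 64 bases of the RefSeq start of the gene. Among the 4 with the smallest p these are Nfkbia, at a distance of 0 bases, and Ddit4, at 64 bases. The highest transcript of Ddit4 starts upstream of the RefSeq start, so the window shown for Ddit4 takes in the first bases of that transcript. For Arid5b the RefSeq start lies 142100 bases from the start of the transcript that carried the rise. That transcript, ENSMUST00000218532, had 1.77, 1.05 and 4.96 FPKM on CFA3D and 13.99, 12.2 and 11.2 FPKM on CFA6D, while the longest tested transcript, ENSMUST00000219238, had 5.26, 5.31 and 3.29 FPKM and 4.86, 5.91 and 5.45 FPKM. For Arrdc2 the distance is 2025 bases. The 250 bases before the start were searched on both strands for the E-box CACGTG, the cyclic AMP response element TGACGTCA, glucocorticoid receptor half-sites in the form GNACANNNTGTNC, and the κB site. Of 27025 promoters of RefSeq (GRCm38.p6), 6.05% hold this E-box, 1.62% this response element, 0.381% the paired half-sites and 7.01% a κB site within the same window. The Ddit4 window holds none of the 4, and the Nfkbia window holds 1 κB site, which stands in capitals and which the other motifs do not overlap.
Ddit4, chr10:59951771-59952020, minus strand: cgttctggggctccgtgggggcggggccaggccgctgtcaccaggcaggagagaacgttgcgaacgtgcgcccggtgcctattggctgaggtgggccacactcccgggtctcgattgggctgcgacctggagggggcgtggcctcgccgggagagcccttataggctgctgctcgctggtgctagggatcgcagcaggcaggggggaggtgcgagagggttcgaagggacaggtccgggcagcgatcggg
Nfkbia, chr12:55492648-55492897, minus strand: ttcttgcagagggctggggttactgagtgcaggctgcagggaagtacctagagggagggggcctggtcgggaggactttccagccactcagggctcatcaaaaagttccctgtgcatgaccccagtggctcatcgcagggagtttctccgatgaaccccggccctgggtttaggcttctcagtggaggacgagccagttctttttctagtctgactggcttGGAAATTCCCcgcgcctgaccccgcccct

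Genes of protein quality control fell in part, by small steps. The proteasome degrades tagged proteins, and of its 38 tested subunits and factors 0 rose and 15 fell, against 5.22% of all gene sums, with a median of -0.15 (11 fell and the median was -0.14 without CFA6D replicate 6). The fold change was below 0 in 37 of the 38. With each library left out in turn, between 6 and 12 fell, with 9 without CFA3D replicate 2, 6 without CFA3D replicate 3 and 7 without CFA6D replicate 5. Psmd13, of the regulatory particle, had 33.5, 32.9 and 33.6 FPKM on CFA3D and 28.3, 26.04 and 26.6 FPKM on CFA6D and fell by 0.31 ± 0.06 (SE, adjusted p = 0.487 in limma); its most abundant transcript alone did not follow, at a log2 fold change of 0.035. Psmd8 fell by 0.30 ± 0.07 (SE), Psma3 by 0.25 and the catalytic subunit Psmb5 by 0.21. The days of these 4 genes did not overlap.

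Some chaperones fell as well. Of 20 heat shock genes 1 rose (5%) and 5 fell (25%), beside 3.63% and 5.22% of all gene sums. The median was -0.21 (1 rose and 2 fell, at a median of -0.19, without CFA6D replicate 6). Without CFA3D replicate 2, 3 fell at a median of -0.20, and without CFA3D replicate 3, 4 fell at -0.13. The mitochondrial pair Hspd1 and Hspe1 fell by 0.29 ± 0.08 and 0.29 ± 0.09 (SE), from 49.1, 54.3 and 58.2 FPKM to 45.3, 44.7 and 41.6 FPKM and from 42.2, 49.8 and 50.9 FPKM to 39.4, 37.3 and 40.01 FPKM. Hsph1 fell by 0.37, with a p over 0.05 without CFA3D replicate 2 (-0.30), CFA3D replicate 3 (-0.35) or CFA6D replicate 6 (-0.27). Bag3, a co-chaperone of selective autophagy, rose by 0.45 ± 0.10 (SE) from 29.2, 33.3 and 34.2 FPKM to 48.9, 39.1 and 44.7 FPKM. In the endoplasmic reticulum, Hspa5, the chaperone BiP, fell by 0.48 ± 0.13 (SE) from 64.8, 89.8 and 76.8 FPKM to 52.1, 51.8 and 60.4 FPKM, and the disulfide isomerase Pdia4 by 0.36 ± 0.09 (SE). They were among the 4 of 19 genes (21.1%) that fell in a list of the unfolded protein and amino acid responses, while 0 rose. Phgdh and Creld2 were the others. The median was -0.17, and -0.16 with 1 that rose and 6 that fell without CFA6D replicate 6. Without CFA3D replicate 2, 2 fell at a median of -0.14.

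Ribosomal protein genes and nuclear genes of oxidative phosphorylation fell in part, in the same small range. Of 83 ribosomal protein genes 1 rose (1.20%) and 16 fell (19.3%), beside 3.63% and 5.22% of all gene sums. The median was -0.15 (-0.18 with 12 that fell without CFA6D replicate 6). With each library left out in turn between 5 and 19 fell, with 10 without CFA3D replicate 1, 5 without CFA3D replicate 2 and 5 without CFA6D replicate 4. In all, 3 of the 16 kept a p under 0.05 in all 6 fits. Rpl41 had 164, 179 and 165 FPKM on CFA3D and 137, 113 and 136 FPKM on CFA6D and fell by 0.40 ± 0.10 (SE), and Rpsa fell by 0.28 ± 0.08 (SE). Of 83 oxidative phosphorylation genes 0 rose and 11 fell (13.3%, beside 5.22% of all gene sums), of which 8 kept their p in all 6 fits. The median was -0.09 (-0.10 without CFA6D replicate 6). Between 9 and 16 fell with each library left out in turn, and the median was -0.02 without CFA3D replicate 3 and -0.14 without CFA3D replicate 2. Ndufb4 of complex I fell by 0.32 ± 0.07 (SE) from 32.6, 36.6 and 35.96 FPKM to 27.2, 28.9 and 27.7 FPKM. The succinate dehydrogenase subunit Sdhd fell by 0.26 ± 0.06 (SE), and Uqcrc2 of complex III by 0.23 ± 0.07 (SE). The 13 protein genes of the mitochondrial genome had a median of -0.04 (-0.04 without CFA6D replicate 6, and 0.10 with 4 that rose without CFA3D replicate 3), and 1 of them, mt-Atp8, rose by 1.02 ± 0.27 (SE), with saline libraries that themselves ranged from 59.1 to 344 FPKM. In glycolysis Eno1 and Tpi1 fell by 0.25 and 0.24, and the median of 21 genes was 0.05 (-0.04 without CFA6D replicate 6), with 1 that rose and 3 that fell.

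Some genes of resident macrophages and of antigen presentation fell. In bulk tissue, fewer cells of a type and less RNA per cell cannot be told apart. Cx3cr1, the fractalkine receptor, fell by 1.00 ± 0.29 (SE) from 2.58, 3.55 and 2.58 FPKM to 0.913, 1.43 and 2.02 FPKM, and 1 saline library lay lower still, at 0.702 FPKM. Cd14, a co-receptor for lipopolysaccharide, fell by 0.87 ± 0.25 (SE) from 3.05, 4.84 and 2.92 FPKM to 1.43, 2.26 and 2.04 FPKM. The complement gene C1qc fell by 0.63, with a p over 0.05 without CFA3D replicate 1 (-0.63), CFA3D replicate 2 (-0.42) or CFA6D replicate 4 (-0.44). Of 20 macrophage genes, 0 rose and 3 fell (15%, beside 5.22% of all gene sums), with a median of -0.24. Without CFA6D replicate 6, the library with the highest macrophage sum, 6 fell and the median was -0.56. It was -0.11 without CFA3D replicate 2 and -0.10 without CFA6D replicate 4, where 2 fell in each case, while without CFA3D replicate 3, 5 fell at -0.43. The general markers Cd68, Aif1 and Csf1r did not pass, at 0.33, -0.17 and -0.24 (adjusted p = 0.734, 0.805 and 0.748 in limma).

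Major histocompatibility complex class II genes encode the molecules that present peptides to helper T cells. Of 10 tested, 0 rose and 3 fell (30%, beside 5.22% of all gene sums). The median was -0.23, and -0.61 with 2 that fell without CFA6D replicate 6. H2-Aa had 45.8, 65.99 and 31.4 FPKM on CFA3D and 22.8, 23.8 and 27.7 FPKM on CFA6D, without overlap, and fell by 0.88 ± 0.25 (SE, adjusted p = 0.494 in limma). Cd74, the invariant chain, had 56.1, 76.98 and 37.9 FPKM and 32.3, 31.6 and 40.9 FPKM, and H2-Eb1 had 20.1, 29.9 and 10.9 FPKM and 11.4, 9.199 and 10.3 FPKM. Both fell, by 0.66 and 0.86, but CFA3D replicate 3 lay within the range of CFA6D. The p of Cd74 was over 0.05 without CFA3D replicate 1 (-0.64), CFA3D replicate 2 (-0.41), CFA6D replicate 4 (-0.60) or CFA6D replicate 5 (-0.59), and that of H2-Eb1 without CFA3D replicate 1 (-0.81), CFA3D replicate 2 (-0.52), CFA6D replicate 4 (-0.93), CFA6D replicate 5 (-0.78) or CFA6D replicate 6 (-0.86). CFA3D replicate 2 had the highest values of these 3 genes, and without it the median of the list was -0.02. Over the fits with a library left out between 1 and 4 fell, with 1 without CFA3D replicate 1, CFA3D replicate 2, CFA6D replicate 4 or CFA6D replicate 5 and 4 without CFA3D replicate 3. Among 26 tested cytokines and chemokines 0 rose and 0 fell (median -0.26). These counts turned on single libraries, since 4 cytokine genes fell without CFA3D replicate 3, 2 fell without CFA3D replicate 1, CFA6D replicate 5 or CFA6D replicate 6, and 0 fell without CFA3D replicate 2 or CFA6D replicate 4, at medians between -0.39 and 0.01. Of 22 interferon response genes 0 rose and 0 fell (median -0.03), with medians from -0.31 without CFA6D replicate 6 to 0.24 without CFA3D replicate 2, 1 that fell without CFA3D replicate 3 and 1 that rose without CFA6D replicate 5.

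**Figure D2:**
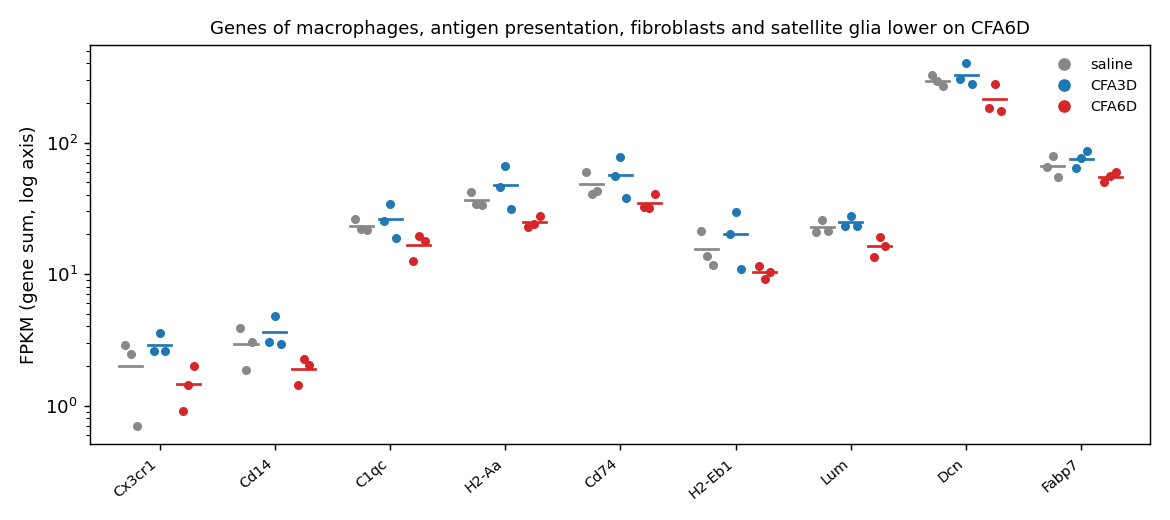
FPKM of genes that fell between CFA3D and CFA6D (vertical log axis, gene sums), from macrophage genes on the left over class II genes to fibroblast genes and Fabp7 on the right. Points are libraries and bars are means of 3; the CFA6D points of Cx3cr1 lie between 0.913 and 2.02 FPKM, below those of CFA3D, while those of H2-Eb1 and Dcn overlap with CFA3D.

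Satellite glia and fibroblasts also had genes that fell. Of 14 satellite glia genes, 0 rose and 4 fell (28.6%, beside 5.22% of all gene sums), while 1 fell without CFA3D replicate 2 and 2 without CFA3D replicate 3. The median was -0.23 (-0.24 without CFA6D replicate 6). Fabp7, a fatty acid binding protein of these glia, had 63.6, 76.5 and 85.9 FPKM on CFA3D and 49.98, 55.2 and 59.4 FPKM on CFA6D and fell by 0.45 ± 0.12 (SE, adjusted p = 0.494 in limma). The transcription factor Sox2 fell by 0.24, the endothelin receptor Ednrb by 0.34 and S100b by 0.23. The p of Sox2 was over 0.05 without CFA3D replicate 1 (-0.24), CFA3D replicate 2 (-0.23) or CFA6D replicate 5 (-0.22), that of Ednrb without CFA3D replicate 2 (-0.31), CFA3D replicate 3 (-0.27), CFA6D replicate 4 (-0.30) or CFA6D replicate 6 (-0.28), and that of S100b without CFA3D replicate 2 (-0.22), CFA3D replicate 3 (-0.18), CFA6D replicate 4 (-0.19) or CFA6D replicate 6 (-0.23). The days overlapped for the glial markers Glul, Kcnj10, Gja1 and Cdh19. Glul had 200, 235 and 178 FPKM on CFA3D and 172, 246 and 202 FPKM on CFA6D. CFA6D replicate 4 was the lowest CFA library for Fabp7, S100b, Glul, Kcnj10 and Gja1, but not for Sox2, Ednrb or Cdh19. It was also lowest for the brain markers Mobp, Mog and Gfap (21.5, 1.82 and 25.3 FPKM), but not for Slc17a7. A link was not tested. Among 16 fibroblast genes, 0 rose and 3 fell (18.75%, beside 5.22% of all gene sums), namely the small proteoglycans Lum, Dcn and Ogn. The list median was -0.05 (-0.22 with 1 that fell without CFA6D replicate 6). The sign of this median turned with single libraries, to 0.18 with 3 that rose and 1 that fell without CFA6D replicate 4 and to 0.11 with 1 that fell without CFA3D replicate 2, and it was -0.30 without CFA3D replicate 3. Lum fell by 0.61 ± 0.14 (SE) from 23.2, 27.8 and 23.3 FPKM to 13.4, 19.1 and 16.3 FPKM. Col15a1, a basement membrane collagen, fell by 0.55 ± 0.11 (SE) from 18.9, 19.1 and 16.2 FPKM to 13.2, 13.1 and 10.8 FPKM, but its most abundant transcript alone gave 0.237. Dcn fell by 0.64 and Ogn by 0.42, neither with a p under 0.05 in all fits, as Dcn lost it without CFA3D replicate 2 (-0.48), CFA6D replicate 4 (-0.55) or CFA6D replicate 6 (-0.51) and Ogn without CFA3D replicate 1 (-0.45), CFA3D replicate 2 (-0.34), CFA3D replicate 3 (-0.45), CFA6D replicate 4 (-0.41) or CFA6D replicate 6 (-0.27). The 42 collagens together had a median of 0.01, with 2 that rose and 3 that fell. With each library left out in turn 0 to 3 rose and 1 to 4 fell, at medians between -0.13 and 0.12. Of 20 vessel genes 0 rose and 1 fell (median -0.06, with 0.16 without CFA3D replicate 2 and -0.28 with 2 that fell without CFA3D replicate 3), and of 24 genes of cholesterol synthesis 0 rose and 1 fell (median -0.02, and 0 to 2 that fell with a library left out). Myelin genes of Schwann cells had a median of -0.05 (0.10 without CFA6D replicate 6), with 1 that rose (Egr2) and 1 that fell (Ugt8a, by 0.26, with a p over 0.05 without CFA3D replicate 2 (-0.24), CFA3D replicate 3 (-0.24) or CFA6D replicate 6 (-0.17)) of 18. Without CFA6D replicate 6, 3 rose and 1 fell, and without CFA6D replicate 5, 1 rose and 4 fell at a median of -0.13.

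Of 20 genes of the neuronal cytoskeleton and synapse 4 rose (20.0%, beside 3.63% of all gene sums) and 1 fell, with a median of 0.09 (0.07 without CFA6D replicate 6). Without CFA3D replicate 2 or CFA6D replicate 4, 2 rose at a median of 0.02, and without CFA3D replicate 3, 5 rose at 0.15. Rbfox3, the splicing factor known as NeuN, rose by 0.49 ± 0.11 (SE) from 35.4, 36.9 and 39.8 FPKM to 59.3, 45.7 and 53.2 FPKM, and Syn1, a protein of synaptic vesicles, by 0.47 ± 0.12 (SE) from 41.8, 39.8 and 46.8 FPKM to 67.01, 50.6 and 61.1 FPKM. Both separated the days in all 3 libraries. Stmn3, which binds tubulin, fell by 0.29 ± 0.09 (SE).

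Of 23 channels and receptors of pain and touch neurons, 1 rose and 1 fell (4.35% each, near the 3.63% and 5.22% of all gene sums). The median was 0.07, and 0.13 with 4 that rose and 1 that fell without CFA6D replicate 6. Without CFA6D replicate 4, 0 rose and 3 fell at a median of 0.02, without CFA3D replicate 2, 0 rose and 2 fell at 0.04, without CFA3D replicate 3, 2 rose and 1 fell, and without CFA3D replicate 1 or CFA6D replicate 5, 0 rose and 1 fell. Piezo2, the main channel for touch, had 44.9, 50.1 and 53.6 FPKM on CFA3D and 59.6, 58.2 and 55.8 FPKM on CFA6D and rose by 0.23 ± 0.08 (SE), and the serotonin-gated channel Htr3a fell by 0.21 ± 0.07 (SE). The p of Piezo2 was over 0.05 without CFA3D replicate 1 (0.16), CFA3D replicate 2 (0.24), CFA6D replicate 4 (0.20) or CFA6D replicate 5 (0.22), and that of Htr3a without CFA6D replicate 5 (-0.18). Scn10a, a sodium channel of nociceptors, had 88.4, 78.9 and 95.1 FPKM and 85.04, 86.4 and 72.9 FPKM (adjusted p = 0.7602 in limma). Of 114 voltage-gated and related ion channel genes 5 rose (4.39%, beside 3.63% of all gene sums) and 0 fell, with a median of 0.11 and 2 that rose without CFA6D replicate 6 or CFA6D replicate 4, 3 without CFA3D replicate 1 and 14 without CFA6D replicate 5. Among 15 neuropeptides 1 rose and 1 fell (median -0.08, with 2 that fell without CFA3D replicate 1 and 0 that rose without CFA3D replicate 1 or CFA6D replicate 6). Nppb, a transmitter of itch neurons, fell by 0.81 ± 0.20 (SE) from 3.59, 4.22 and 2.900 FPKM to 2.37, 1.56 and 2.05 FPKM. Sst rose by 0.74 with overlapping days, and its p was over 0.05 without CFA3D replicate 1 (0.76), CFA3D replicate 2 (0.54), CFA6D replicate 4 (0.81) or CFA6D replicate 6 (0.49). Calca, which encodes CGRP, had 338, 346 and 383 FPKM on CFA3D and 316, 328 and 254 FPKM on CFA6D, a log2 difference of -0.25 that did not pass (adjusted p = 0.596 in limma). Of 19 tested genes that mark injured sensory neurons 0 rose and 0 fell (median 0.12), while 3 rose without CFA3D replicate 2 and 1 rose without any one CFA6D library. Among them was Atf3, at 1.899, 3.41 and 1.96 FPKM and 3.32, 3.61 and 2.94 FPKM (adjusted p = 0.606 in limma).

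**Figure D3:**
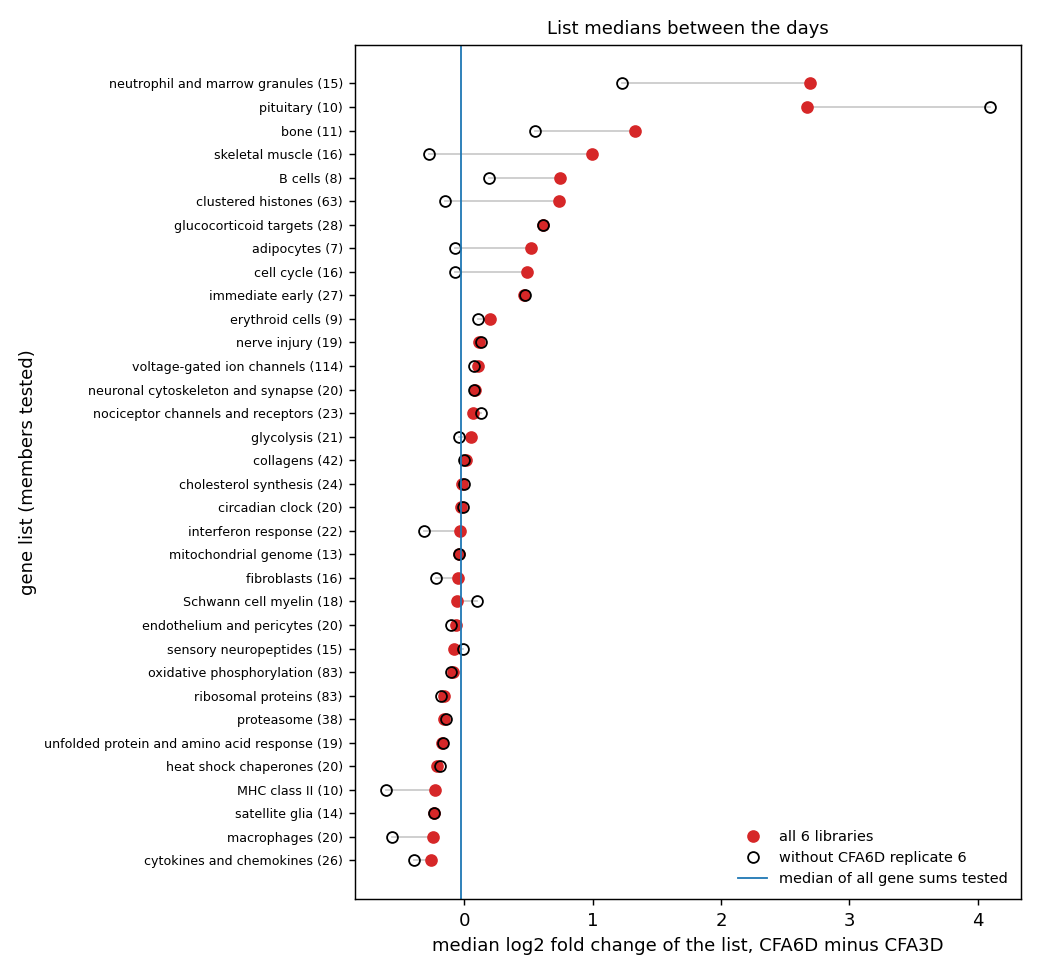
Median log2 fold change, CFA6D minus CFA3D, of the 34 gene lists (horizontal axis), with all 6 libraries (filled) and without CFA6D replicate 6 (open), and a line at the median of all gene sums, -0.02. The glucocorticoid list stays at 0.61 and 0.62, whereas the marrow list moves from 2.69 to 1.23 and the muscle list from 1.00 to -0.27.

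Many genes of other tissues had large fold changes, with the highest values in 1 or 2 libraries. Pomc, Gh, Prl and Cga encode hormones of the pituitary, which lies beside the ganglion. Pomc had 1.27, 7.899 and 8.66 FPKM on CFA3D and 282, 343 and 10.5 FPKM on CFA6D, and Gh had 18.3, 5.099 and 5.21 FPKM and 742, 44.6 and 29.2 FPKM. CFA6D replicates 4 and 5 were thus above CFA6D replicate 6 for both hormones, and the saline libraries ranged for Gh from 7.33 to 9120 FPKM. The p of Pomc was over 0.05 without CFA3D replicate 1 (3.59), CFA6D replicate 4 (3.72) or CFA6D replicate 5 (3.58), that of Gh without CFA3D replicate 2 (3.32) or CFA3D replicate 3 (3.34), and that of Cga without CFA3D replicate 1 (3.48), CFA3D replicate 2 (3.48), CFA6D replicate 4 (2.71) or CFA6D replicate 5 (2.85). Prl rose from 0.633, 0.7001 and 0.557 FPKM to 80.7, 8.77 and 2.65 FPKM and kept its p in all fits. Of 10 pituitary genes 4 rose, and 8 rose without CFA6D replicate 6, where the median went from 2.67 to 4.10. Without CFA3D replicate 1, CFA3D replicate 2 or CFA6D replicate 4, 2 rose. The sum of the neutrophil and marrow granule genes was highest in CFA6D replicate 6, but those of CFA6D replicates 4 and 5 also exceeded every CFA3D sum. S100a9 had 14.1, 26.03 and 7.56 FPKM on CFA3D and 57.2, 48.2 and 1024 FPKM on CFA6D. Of 15 such genes 6 rose (median 2.69), and without CFA6D replicate 6, 10 rose at a median of 1.23. The days did not overlap in 11 of the 15, beside 16.6% of all gene sums. Without CFA3D replicate 1 or CFA3D replicate 3, 0 of the 15 passed, while 11 passed without CFA6D replicate 4 and 10 without CFA6D replicate 5. Muscle, bone, histone and cell cycle genes had medians of 1.00, 1.33, 0.74 and 0.49 with all libraries, and of -0.27, 0.55, -0.15 and -0.07 without CFA6D replicate 6. Of the histone genes, 1 rose and 1 fell with all libraries, and 2 rose and 9 fell without it. Genes of B cells, red cells and fat had medians of 0.75, 0.20 and 0.52, and of 0.19, 0.11 and -0.07 without it. The part of such tissue in the other gene groups was not tested.

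**Figure D4:**
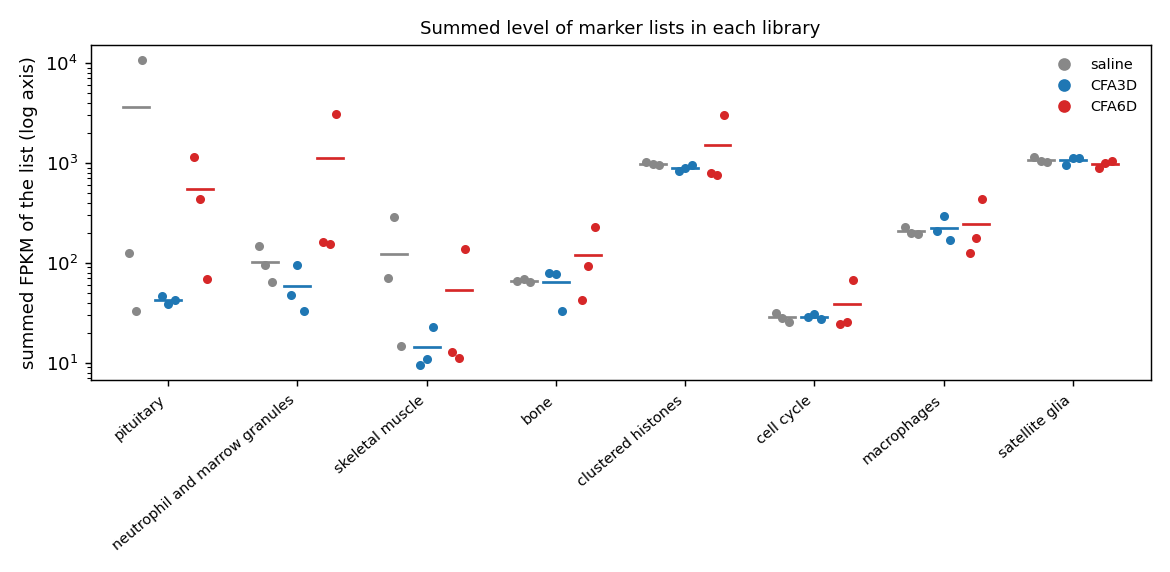
Summed FPKM of 8 marker lists (vertical log axis) in each saline, CFA3D and CFA6D library, where points are libraries and bars are means of 3. CFA6D replicate 6 is the highest CFA library for marrow (3082 FPKM), histones and cell cycle, and CFA6D replicates 4 and 5 for pituitary (1151 and 438 FPKM), while the satellite glia sums were 963, 1129 and 1126 FPKM on CFA3D and 895, 1003 and 1050 FPKM on CFA6D.

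Beyond these lists, the genes called higher with the smallest p included several of epithelial or metabolic function at low levels. Scnn1a, a subunit of the epithelial sodium channel, had 0.159, 0.275 and 0.211 FPKM on CFA3D and 0.4999, 0.732 and 0.8805 FPKM on CFA6D and rose by 1.34 ± 0.28 (SE). Ces1d, a carboxylesterase, rose by 1.52 ± 0.25 (SE) from 0.102, 0.185 and 0.0958 FPKM to 0.523, 0.509 and 0.606 FPKM, though its saline libraries reached 6.18 FPKM. Aloxe3, a lipoxygenase of the skin barrier, rose by 1.27, and Dmkn, a secreted protein of epidermis, by 1.72. For Aloxe3 the saline libraries, at 0.216 to 0.340 FPKM, lay near CFA6D (0.308 to 0.461 FPKM) and above CFA3D (0.0797 to 0.106 FPKM). Dmkn had 0, 0.0241 and 0.0135 FPKM on CFA3D and 0.255, 0.171 and 0.423 FPKM on CFA6D, with saline libraries at 0.0114 to 0.0912 FPKM. Fam107b rose by 1.01 ± 0.20 (SE) from 3.23, 3.78 and 2.31 FPKM to 6.49, 7.17 and 5.26 FPKM. The predicted genes E030018B13Rik and Gm37419 rose by 1.12 and 2.05. Gm43518 was listed at 0 in all CFA3D libraries and at 0.646, 0.216 and 0.713 FPKM on CFA6D. None of these reached an adjusted p under 0.05, and each kept its unadjusted p under 0.05 in all fits with a library left out. They had been picked for a small p and separate days in the same libraries, so this last result adds no independent evidence.

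Genes called lower were led by Lsm12, an RNA-binding protein of the Sm-like family. It had 13.2, 12.8 and 12.5 FPKM on CFA3D and 4.47, 4.84 and 6.201 FPKM on CFA6D and fell by 1.31 ± 0.13 (SE, adjusted p = 0.193 in limma). Saline libraries spanned both levels, at 11.6, 5.34 and 4.83 FPKM. Fam131b fell by 1.22 ± 0.17 (SE) from 15.5, 17.1 and 17.1 FPKM to 5.78, 6.51 and 9.16 FPKM. Here the saline libraries, at 13.3 to 15.05 FPKM, were near CFA3D, whose day they share. Both had an adjusted p of 0.0137 in limma in the fit without CFA6D replicate 6. In that fit 6 gene sums passed, and the smallest adjusted p, 0.0046 in limma, was that of the pituitary gene Cga. The homeobox gene Lbx2 fell by 1.38 and the secretoglobin Scgb3a1 by 1.01, and Srarp by 1.14. Cyp2e1, a cytochrome P450 enzyme, fell from 0.287, 0.304 and 0.295 FPKM to 0.0277, 0.0431 and 0.119 FPKM. Gm10800 and Gm45837 fell by 1.23 and 1.71. Saline libraries of Gm10800 (6.73 to 11.6 FPKM) lay near CFA6D (6.05 to 9.28 FPKM) and below CFA3D (17.3 to 20.2 FPKM). Those of Cyp2e1 (0.113 to 0.136 FPKM) also lay below CFA3D, and those of Gm45837 ranged from 0.529 to 2.29 FPKM. In Lbx2, Scgb3a1 and Srarp every saline library lay above every CFA6D library.

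Several of the called noncoding genes lie inside coding genes or on the strand opposite to them. Of 4210 lncRNA gene sums 32 were called higher (0.76%) and 37 called lower (0.879%), and 0 had an adjusted p under 0.05 in limma (259 had an unadjusted p under 0.05). Gm45774 (chr8:94170748-94173412, minus strand) overlaps the metallothionein gene Mt2 on the opposite strand. It had 0.589, 0.549 and 0.386 FPKM on CFA3D and 2.25, 3.302 and 2.02 FPKM on CFA6D and rose by 2.10 ± 0.24 (SE, adjusted p = 0.0611 in limma), while Mt2 itself stood at 406, 319.7 and 374 FPKM and 367, 504 and 232 FPKM. AC154912.1 (chr17:28446500-28456457, plus strand) lies opposite to Fkbp5. It had 0.366, 0.558 and 0.142 FPKM on CFA3D and 1.83, 3.34 and 3.25 FPKM on CFA6D and rose by 2.74 ± 0.38 (SE, adjusted p = 0.101 in limma). AC154912.3 (chr17:28457484-28461095, minus strand), a gene of the other noncoding table inside Fkbp5 on the same strand, rose by 2.98 ± 0.32 (SE, adjusted p = 0.0386 in limma) from 0.389, 0.494 and 0.196 FPKM to 2.47, 4.22 and 3.72 FPKM. Both noncoding genes at Fkbp5 changed more on the log2 scale than the 0.63 of Fkbp5, a difference between genes that was not tested.

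The transcription factor gene Ebf2 on chromosome 14 was called lower, with 4.84, 8.02 and 7.51 FPKM on CFA3D and 2.79, 4.08 and 2.34 FPKM on CFA6D (log2 fold change -1.12 ± 0.26, SE, adjusted p = 0.487 in limma). It was looked up after the noncoding genes within it had been seen. Gm6878 (chr14:67304888-67314711) and 1700120O09Rik (chr14:67324894-67335928), both on the strand opposite to Ebf2, fell by 1.497 ± 0.23 and 1.42 ± 0.25 (SE). Gm6878 had 1.71, 2.300 and 1.73 FPKM on CFA3D and 0.656, 0.771 and 0.438 FPKM on CFA6D, and 1700120O09Rik had 1.22, 2.17 and 1.58 FPKM and 0.549, 0.671 and 0.425 FPKM. Gm23178, a locus of 95 bases annotated as a miRNA in the same gene (chr14:67274869-67274963), fell by 3.39 ± 0.38 (SE, adjusted p = 0.0408 in limma) from 2.67, 3.61 and 1.68 FPKM to 0.0956, 0.106 and 0.293 FPKM, or from about 5.75 to 13.6 to about 0.358 to 1.06 read pairs. Libraries were stranded, but whether strand was used to assign reads is not given in the sources used here, so reads of a gene and of its antisense partner may not be separated. MSTRG.11269, a predicted lncRNA, rose by 1.31 ± 0.18 (SE) from 1.26, 0.935 and 1.08 FPKM to 2.78, 2.51 and 3.27 FPKM.

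**Figure D5:**
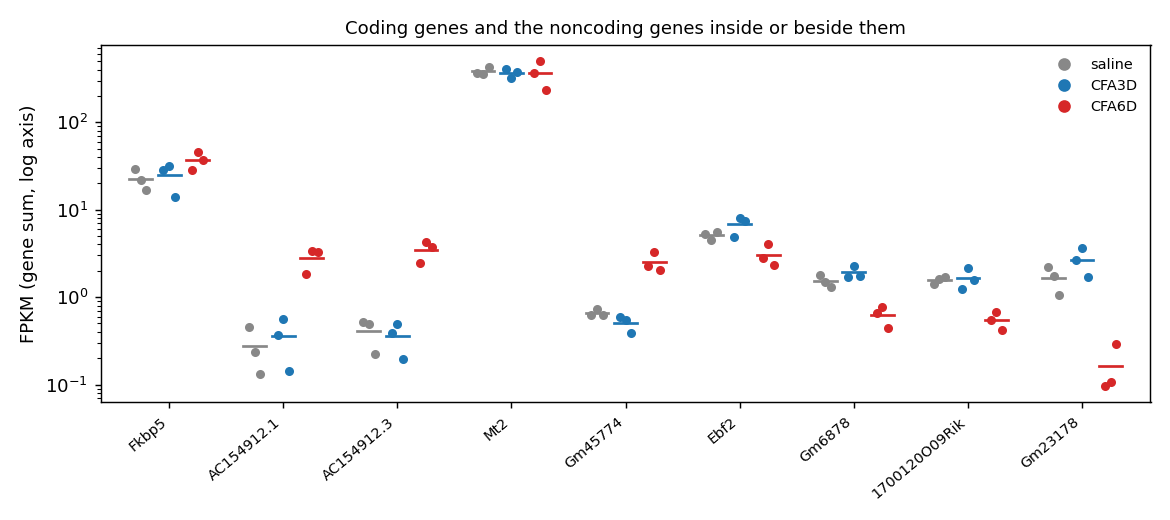
FPKM (vertical log axis, gene sums) of Fkbp5, Mt2 and Ebf2, each followed by the noncoding genes that overlap it, in saline, CFA3D and CFA6D libraries. Points are libraries and bars are means of 3; the CFA6D points of AC154912.3 lie between 2.47 and 4.22 FPKM and those of CFA3D between 0.196 and 0.494 FPKM, while Fkbp5 and Mt2 overlap between the days.

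In the table of other noncoding RNAs, 109 of 7725 gene sums were called higher and 109 lower (1.41% each), and 5 had an adjusted p under 0.05 in limma. Besides AC154912.3 and Gm23178 these were hairpins of miRNAs. Mir3101, within Rab4b, had 0.0204, 0.0226 and 0.02098 FPKM on CFA3D and 3.87, 3.04 and 5.27 FPKM on CFA6D (log2 fold change 5.06 ± 0.26, SE, adjusted p = 0.000384 in limma). Mir3072 went the other way, from 5.18, 3.09 and 5.300 FPKM to 0.0146, 0.0237 and 0.0226 FPKM (log2 fold change -5.23 ± 0.27, SE, adjusted p = 0.000384 in limma). Mir1897, 11863 bases from Sox2, had 0.0685, 0.0715 and 0.08002 FPKM on CFA3D and 3.39, 16.1 and 13.5 FPKM on CFA6D (log2 fold change 5.72 ± 0.54, SE, adjusted p = 0.0197 in limma). In all 3, the low day stood below the worth of 1 read pair at the annotated hairpin length, at about 0.0665 to 0.0786, 0.0477 to 0.0743 and 0.223 to 0.228 read pairs, and these fold changes depend on the pseudocount. The high day stood at about 10.1 to 17.6, 10.1 to 18.1 and 10.5 to 48.00 read pairs. Saline libraries also stood on both levels for Mir3072, at 5.03, 3.87 and 0.0184 FPKM, and for Mir1897, at 0.0974, 16.6 and 27.99 FPKM. Total RNA libraries of this kind read fragments that cover a hairpin or its host transcript, not the mature miRNA. The mature sequences of RefSeq (GRCm38.p6) are given to identify the loci, with the seed, bases 2 to 8, in capitals, and none of them share a seed.
mmu-miR-3101-5p, chr7:27176058-27176078, minus strand: gGUACCAUugacuaaagcuag
mmu-miR-3101-3p, chr7:27176020-27176040, minus strand: uAGCUUUGguggauggucuuu
mmu-miR-3072-5p, chr12:109747893-109747914, plus strand: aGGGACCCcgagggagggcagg
mmu-miR-3072-3p, chr12:109747928-109747949, plus strand: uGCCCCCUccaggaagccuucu
mmu-miR-1897-3p, chr3:34638511-34638532, plus strand: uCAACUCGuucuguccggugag

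Single transcripts were called in a larger share than gene sums. Of 66209 mRNA transcripts 769 were called higher (1.16%) and 743 lower (1.12%), and 11 had an adjusted p under 0.05 in limma. For 1502 of the called transcripts the gene sum was tested too, and in 82.2% of them the gene sum moved by less than 0.5 on the log2 scale. A transcript of Wwp2, a ubiquitin ligase, was listed at 0 on CFA3D and at 9.21, 8.25 and 6.22 FPKM on CFA6D (adjusted p = 0.00258 in limma), while the gene sum was 19.7, 19.8 and 19.4 FPKM and 20.9, 20.01 and 22.1 FPKM. Saline libraries stood on both levels for this transcript, at 0, 6.48 and 7.53 FPKM. The gene sum of Wwp2 did not pass, with a log2 fold change of 0.10 (adjusted p = 0.671 in limma). Epdr1 shows opposite directions, with the transcript ENSMUST00000221014 listed at 0 on CFA3D and at 2.61, 2.47 and 2.59 FPKM on CFA6D, and a gene sum that fell by 0.27 ± 0.06 (SE). The transcript of D130043K22Rik went from 3.96, 4.71 and 3.86 FPKM to a listing at 0, as in the saline libraries, and that of 1500011B03Rik from 6.797, 5.16 and 6.44 FPKM to 0.106, 0.126 and 0.106 FPKM. In Cbln2, a synapse organiser of the cerebellin family, transcript and gene sum both rose, the transcript from 0.002899, 0 and 0 FPKM to 2.73, 1.903 and 2.64 FPKM and the gene sum from 2.39, 2.59 and 2.705 FPKM to 4.16, 3.44 and 4.35 FPKM (rise of 0.61 ± 0.13, SE, adjusted p = 0.487 in limma).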

How the data were processed

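Total RNA of TG pools was sequenced after removal of ribosomal RNA. Transcript abundances were deposited as FPKM by the authors, in 3 tables (mRNA, lncRNA and other noncoding RNA), without read counts. The sources differ on how the reads were handled: the study's methods name Trimmomatic, CLC Genomics Workbench for expression levels and the GRCm38 genome, whereas the submitters' processing notes name Bowtie and mm8. Neither says which of these made the FPKM values. The tables have 0 columns without a sample. Transcripts were assigned to genes by their identifiers in GENCODE release M21, and FPKM was summed per gene within a table. Values were tested as log2(FPKM + 0.1) in limma 3.58.1 (R 4.3.3, empirical Bayes with a mean trend, two-sided) on the 6 CFA libraries, for features with a mean of at least 0.1 FPKM, with Benjamini-Hochberg adjustment over all features tested in a table. For a single value, an exact permutation test of 3 against 3 cannot go below p = 0.1. The fit was tested on simulated data with independent noise for each gene and library. Of 100 mRNA gene sums moved by a log2 change of 1, 88 were found at an unadjusted p under 0.05 in limma, as were 97 of 100 moved by 2. Of those not moved 5.15% passed. No whole library was shifted in it, so it could not show how the fit behaves when 1 library stands apart. Depth was read from the spacing of low values, and 1 read pair in 1 kb was worth 0.0237 to 0.0278 FPKM.

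Comparisons, gene lists and alternatives were chosen with earlier results of these data known. Genes named are the 15 called higher and 10 called lower mRNA genes with the smallest p and separate days, the 4 members of each of 34 lists with the smallest p (in part), the 5 called lncRNA and 5 called other noncoding genes with the smallest p, and the 6 transcripts with the smallest adjusted p. A few genes that this rule takes in are not reported here. Other list members, Ebf2 and the host genes were named after their values were seen. Alternatives were other pseudocounts, filters, call rules, quantile normalization, all 9 libraries, other gene values, and each library left out. Tables were drawn up with Python 3.11.15, pandas 2.3.3 and numpy 2.4.6, and figures with matplotlib 3.10.9.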

Additional observations from a re-analysis of the deposited data

How the results depend on the processing

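The count of called mRNA gene sums (121) became 196 with the most abundant transcript in place of the sum, 58 with a mean of at least 1 FPKM, 32 with a pseudocount of 1, 1424 without a fold minimum and 0 at an adjusted p under 0.05, and 97 to 222 with each library left out, the most without CFA6D replicate 4. The 69 lncRNA calls became 12, 8, 259 and 0 under the last 4 of these settings in the same order (67 to 95 with a library left out). The 218 other noncoding calls became 29, 14, 491 and 5 (244 to 279), and the 1512 transcript calls 382, 292, 3852 and 11 (1618 to 1799). The adjusted p under 0.05 passed by 6 mRNA gene sums without CFA6D replicate 6. Of the called mRNA gene sums, 80.2% were higher on CFA6D, and 57.7% with the most abundant transcript, 67.0% without CFA3D replicate 1, 46.4% without CFA3D replicate 3 and 66.0% without CFA6D replicate 6. With the most abundant transcript the sign turned for the log2 fold change of Ugt8a (0.22), the log2 fold change of Col15a1 (0.24), the log2 fold change of Col9a3 (0.019) and the log2 fold change of Psmd13 (0.035), and the cause was not tested. Of 116 named genes and transcripts with a p under 0.05, 58 kept it in the same direction in all settings run. No paired analysis was possible because the days share no replicate number. FPKM without counts gives no counting error, and genes near the worth of a few read pairs are the least precise.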
